A study of Mus musculus with 2 samples.

Results

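The 8 genes *Wfdc2*, *Cxcl13*, *Sprr1a*, *Ceacam10*, *S100a14*, *Dcpp1*, *Ces1d* and *Cbln4* code for secreted, epithelial barrier and xenobiotic-handling proteins, and were described in single-cell RNA-seq of mouse small cell lung cancer. They were chosen, out of 27998 genes in the count matrices, because their summed UMIs (unique molecular identifiers, each read as 1 captured transcript) were far higher in the tumor cells of TKO1 than in those of TKO2. All 8 were found in both matrices. TKO1 and TKO2 are 1 library each, made from 1 lung tumor of 1 mouse per library, and the labels give both mice the same genotype (Rb-/-; Trp53-/-; Rbl2-/-, with a Rosa26 membrane-Tomato or membrane-GFP reporter), the same mixed strain background (C57BL/6 with 129/SVJ and 129/SvOla), an age of 8 to 9 months and a harvest 7 months after Adeno-CMV-cre. The CMV promoter is not restricted to a cell type, so Cre acts in whichever lung cells take up the virus. No labelled condition separates the tumors. With 1 library per tumor no difference was tested across animals, and every interval below is a 95% exact interval that covers counting error only.

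Small cell lung cancer is a neuroendocrine tumor, and its cells are marked by secretory granules and by secreted peptides such as calcitonin, the product of *Calca*. The conducting airways of the lung are lined by club cells, which secrete uteroglobins (*Scgb1a1* and relatives), antimicrobial proteins and protease inhibitors into the airway fluid, and which detoxify inhaled compounds. Airway epithelium as a whole forms a barrier through keratins, cadherins and claudins, while stratified epithelia such as the skin add a cornified envelope of crosslinked small proteins.

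Barcodes with more than 500 detected genes were kept, which left 3193 of 4514 barcodes in TKO1 and 3568 of 3816 in TKO2, with median depths of 1223 and 1960 UMIs. Each tumor was clustered by itself with the 8 genes and *Calca* left out of the clustering genes. In TKO1 this gave 2990 neuroendocrine-like cells in 8 clusters, called tumor cells here, 105 club-like cells and 98 macrophage-like cells. In TKO2 it gave 3394 tumor cells, 124 macrophage-like cells and a cluster of 50 cells that was left unnamed, since both neuroendocrine and club markers were raised in it. The TKO1 tumor cells were named from a list of 16 neuroendocrine markers, so these markers describe the cells and are no check of the name. All 16 were detected in them, as were 15 in the macrophage-like and 14 in the club-like cells. They summed to 6284 CPM (UMIs of a gene per 1000000 UMIs of a group) in tumor cells. The sums were 1775 CPM in the club-like and 1196 CPM in the macrophage-like cells. Basal cell markers summed to 0.473 CPM in the tumor cells. Club markers summed to 468 CPM in the same tumor cells, beside 406 CPM in the macrophage-like cells, and ciliated markers, all 8 of them detected, to 228 CPM. In 1 of the tumor clusters 4 ciliated markers were raised. The deleted genes gave no check of the labels, since 3′ counts may lie outside the deleted exons: the tumor cells of TKO1 and TKO2 held 77.1 and 15.3 CPM of *Rb1*, 49.0 and 63.3 CPM of *Trp53* and 9.46 and 1.80 CPM of *Rbl2*. The same 22 barcode sequences occurred in both libraries, of which 11 were TKO1 tumor cells and 21 were TKO2 tumor cells.

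The ratio of CPM between the tumor cells of TKO1 and TKO2 chose the genes and is given only as a description. Among genes with at least 100 CPM in TKO1 tumor cells, the 8 held places 1, 2, 3, 6, 7, 9, 11 and 20 by this ratio, and all 8 were at least 4-fold higher, as were 14.3% of all 12928 genes tested, whereas 4.84% were at least 4-fold lower. *Ces1d* at 213-fold and *Dcpp1* at 71.4-fold were the lowest of the 8. Genes near them that are not among the 8 were *Ifi27l2a*, an interferon-induced gene, at 229-fold, *Resp18*, a neuroendocrine secretory granule gene, at 179-fold and *S100a1* at 73.9-fold. The median log2 ratio was 8.50 over the 8 genes and 0.36 over all genes tested. The 18 TKO2 tumor cells with at least 3 *Calca* UMIs held 10 of the 17 *Wfdc2* UMIs, all 14 *Dcpp1* UMIs and 9 of 23 *Cxcl13* UMIs of TKO2 tumor cells, but 2 of 13 *Ces1d* UMIs and 0 of the UMIs of *S100a14* and *Cbln4*. Without these cells, a setting added after the data were seen, the log2 ratio of *Wfdc2* went from 7.87 to 9.14 and that of *Dcpp1* from 6.16 to at least 8.37.

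*Wfdc2* codes for a secreted WAP-domain protein of airway and other epithelia. It stood at 511 CPM (489 to 533) in TKO1 tumor cells, at 819 CPM (697 to 955) in TKO1 club-like cells, at 606 CPM (461 to 781) in the 53 TKO2 barcodes with at least 3 *Calca* UMIs, at 90.9 CPM (48.4 to 155) in TKO1 macrophage-like cells and at 2.18 CPM (1.27 to 3.49) in TKO2 tumor cells. The club-like cells were thus highest, the *Calca* barcodes did not differ from either neighbour beyond their intervals, and the tumor cells of TKO2 were lowest by far. The gene (ENSMUSG00000017723) lies on the + strand at chr2:164562413-164568510 of GRCm38.

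*Cxcl13* codes for the chemokine that draws B cells through the receptor CXCR5. Its level was 1772 CPM (1732 to 1812) in TKO1 tumor cells, 552 CPM (437 to 688) in macrophage-like cells, 427 CPM (341 to 529) in club-like cells, 369.6 CPM (259 to 512) in the *Calca* barcodes of TKO2 and 2.95 CPM (1.87 to 4.43) in TKO2 tumor cells. The 3 middle groups overlapped, and the TKO1 tumor cells stood above all of them. The gene (ENSMUSG00000023078) lies on the + strand at chr5:95956951-95961068.

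*Dcpp1* codes for a secreted demilune cell and parotid protein, named for salivary glands. Its levels were 144 CPM (78.6 to 241) in the *Calca* barcodes of TKO2, 128 CPM (118 to 139) in TKO1 tumor cells, 96.6 CPM (58.2 to 151) in club-like cells, 21.0 CPM (4.33 to 61.3) in macrophage-like cells and 1.80 CPM (0.982 to 3.01) in TKO2 tumor cells. The top 3 groups could not be told apart within these intervals. Of the 14 *Dcpp1* UMIs of TKO2 tumor cells, 13 came from 1 barcode that also held 16 *Calca* UMIs. The gene (ENSMUSG00000096445) lies on the + strand at chr17:23880876-23882853. Of the 451 words of 50 bases at its transcript end, 33.5% also occur elsewhere. They were shared with 2 other genes, and all of them occur in *Dcpp2*, so part of its count may be shared with or lost to such copies.

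*Cbln4* codes for a secreted cerebellin, best known as a synaptic organizer. It was at 194 CPM (180.5 to 207) in TKO1 tumor cells, at 35.6 CPM (14.3 to 73.3) in club-like cells, at 35.0 CPM (11.4 to 81.6) in macrophage-like cells and at 0.642 CPM (0.208 to 1.497) in TKO2 tumor cells. No *Cbln4* UMI was found in the *Calca* barcodes of TKO2, which allows a level of up to 30.8 CPM. Club-like and macrophage-like cells did not differ. The gene (ENSMUSG00000067578) lies on the - strand at chr2:172036233-172043466.

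*Sprr1a* codes for a small proline-rich protein of the cornified envelope that is also known from injured neurons. Its levels were 350.4 CPM (333 to 369) in TKO1 tumor cells, 122 CPM (78.2 to 182) in club-like cells, 83.9 CPM (43.4 to 147) in macrophage-like cells and 71.9 CPM (28.9 to 148) in the *Calca* barcodes of TKO2, where all 7 UMIs came from 1 barcode. No UMI of *Sprr1a* was found in the 3394 tumor cells of TKO2, which allows up to 0.385 CPM, so that TKO1 was at least 910.2-fold higher. The gene (ENSMUSG00000050359) lies on the - strand at chr3:92483952-92485895.

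*S100a14* codes for a calcium-binding protein of epithelial cells. It was at 227 CPM (213 to 242) in TKO1 tumor cells, and at 35.6 CPM (14.3 to 73.3) in club-like cells and 35.0 CPM (11.4 to 81.6) in macrophage-like cells, which did not differ. TKO2 gave 1 UMI in the *Calca* barcodes and 3 UMIs in tumor cells, or 10.3 CPM (0.260 to 57.2) and 0.385 CPM (0.0794 to 1.12). The gene (ENSMUSG00000042306) lies on the + strand at chr3:90526856-90528837.

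*Ceacam10* codes for a member of the carcinoembryonic antigen adhesion family that in the mouse is secreted. Its level was 111 CPM (102 to 122) in TKO1 tumor cells and 91.5 CPM (54.2 to 145) in club-like cells, a difference within the intervals. It was 41.1 CPM (11.2 to 105) in the *Calca* barcodes of TKO2, 13.98 CPM (1.69 to 50.5) in macrophage-like cells and 0.257 CPM (0.0311 to 0.927) in TKO2 tumor cells. The gene (ENSMUSG00000054169) lies on the + strand at chr7:24777206-24784657.

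*Ces1d* codes for a carboxylesterase that hydrolyses esters of lipids and drugs. Its levels were 412 CPM (327 to 512) in club-like cells, 356 CPM (338 to 374.5) in TKO1 tumor cells, 154 CPM (86.2 to 254) in the *Calca* barcodes of TKO2, 28.0 CPM (7.62 to 71.6) in macrophage-like cells and 1.67 CPM (0.888 to 2.85) in TKO2 tumor cells. Club-like and TKO1 tumor cells did not differ beyond their intervals. The gene (ENSMUSG00000056973) lies on the - strand at chr8:93166068-93197838.

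Macrophage-like cells should lack most of these transcripts, and their level is given as a reference. In TKO1 they held between 7.86% and 31.2% of the tumor cell level of each of the 8 genes, and 19.4% (17.7 to 21.3) of that of *Calca*. The lowest share was that of *Ces1d* and the highest that of *Cxcl13*. The 74 of the 98 cells with under 3 *Calca* UMIs held 24 of the 471 *Calca* UMIs, a small part that follows from how they were picked. They held 0 UMIs of *Ceacam10*, *S100a14*, *Dcpp1* and *Cbln4*, of which all 98 cells held 2, 5, 3 and 5. Of *Wfdc2*, *Cxcl13*, *Sprr1a* and *Ces1d* they held 5, 24, 2 and 1 UMIs. For *Wfdc2*, *Ceacam10*, *Dcpp1* and *Ces1d* the club-like level exceeded the macrophage-like level beyond the interval of their ratio, which was 9.01-fold (5.12 to 17.3) for *Wfdc2* and 14.7-fold (5.53 to 55.3) for *Ces1d*. For *Cxcl13*, *Sprr1a*, *S100a14* and *Cbln4* it did not.

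The comparison of tumor cells with club-like cells lies within the TKO1 library. The club-like cells were not used to choose the genes but the level in TKO1 tumor cells was, so the counts are given as a description beside those over all genes. *Cxcl13*, *S100a14* and *Cbln4* were at least 4-fold higher in the tumor cells, with log2 ratios of 2.05 (1.74 to 2.38), 2.67 (1.62 to 3.99) and 2.44 (1.39 to 3.76), and none of the 8 was at least 4-fold lower. Of all 11808 genes tested, 5.87% were at least 4-fold higher and 3.51% at least 4-fold lower. The median log2 ratio was 0.53 over the genes with a ratio, which left out 1839 genes without UMIs in one group whose direction the limit of 3 UMIs did not settle. With TMM scaling, which lowered the median of the 8 genes from 0.97 to 0.50, *Cxcl13* (1.58) and *Cbln4* (1.97) fell under the 4-fold limit and *S100a14* (2.20) did not. *Sprr1a* was higher in tumor cells with a log2 ratio of 1.52 (0.94 to 2.17). *Wfdc2* was lower, with a log2 ratio of -0.68 (-0.91 to -0.44), and the intervals of *Ceacam10*, *Dcpp1* and *Ces1d* included 0. *Scgb1a1* alone gave 253810 CPM in the club-like cells, which lowers the CPM of every other gene there; this acts on all 8 genes alike.

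The club-like cells were a mixture in respect of *Calca*, and the genes divided along it. After these values were seen, the 105 cells were divided into 57 with under 3 *Calca* UMIs and 48 with 3 or more. In the 57 cells *Wfdc2* stood at 878 CPM (706 to 1079) and *Ces1d* at 439 CPM (320.1 to 587). *Cxcl13* was at 58.5 CPM from 6 UMIs in 2 cells, *Dcpp1* had 2 UMIs and *S100a14* had 1 UMI, and no UMI of *Sprr1a*, *Ceacam10* or *Cbln4* was found, which allows up to 29.3 CPM each. The airway secretory gene *Wfdc2* and the esterase *Ces1d*, with 90 and 45 UMIs, were therefore the members with the most UMIs in club-like cells with little *Calca*.

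In the 48 club-like cells with 3 or more *Calca* UMIs all 8 genes were detected. *Cxcl13* was at 829 CPM (655 to 1034), *Sprr1a* at 255 CPM (163 to 379), *Ceacam10* at 191 CPM (113 to 302) and *Dcpp1* at 181 CPM (105 to 289). The 16 neuroendocrine markers summed to 3325 CPM there and to 351 CPM in the cells with under 3 *Calca* UMIs. Whether such barcodes held a tumor cell and a club cell together was not tested. Scrublet, a doublet caller, called 0 barcodes in either library and is taken not to have worked.

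Set against the 57 club-like cells alone, 7.97% of the 11742 genes tested were at least 4-fold higher in TKO1 tumor cells. Another 3708 of the genes tested had no ratio and could not be called. Again as a description, 5 of the 8 genes were at least 4-fold higher. These were *Cxcl13* with a log2 ratio of 4.92 (3.80 to 6.37), *S100a14* with 4.54 (2.06 to 9.85), *Dcpp1* with 2.72 (0.86 to 5.77), *Sprr1a*, at least 11.97-fold higher, and *Cbln4*, at least 6.61-fold higher. *Ceacam10* was at least 3.81-fold higher. *Wfdc2* was lower with a log2 ratio of -0.78 (-1.09 to -0.46), and *Ces1d* gave -0.30 (-0.73 to 0.16). The 270 TKO1 tumor cells that themselves held under 3 *Calca* UMIs had *Ceacam10* at 123 CPM (89.7 to 165), close to the 111 CPM of all TKO1 tumor cells. The other 7 genes were lower there than in all tumor cells beyond the intervals, with *Cxcl13* at 1124 CPM (1017 to 1238), *Wfdc2* at 323 CPM (267 to 386), *Sprr1a* and *Cbln4* at 118 CPM (85.1 to 158) each, *Ces1d* at 112 CPM (80.4 to 152), *S100a14* at 109 CPM (78.1 to 149) and *Dcpp1* at 10.9 CPM (2.98 to 28.0). Of the 43 *Sprr1a* UMIs in these 270 cells, 30 came from 1 cell. The 43 *Cbln4* UMIs lay in 35 cells with at most 4 in a cell.

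**Figure D1:**
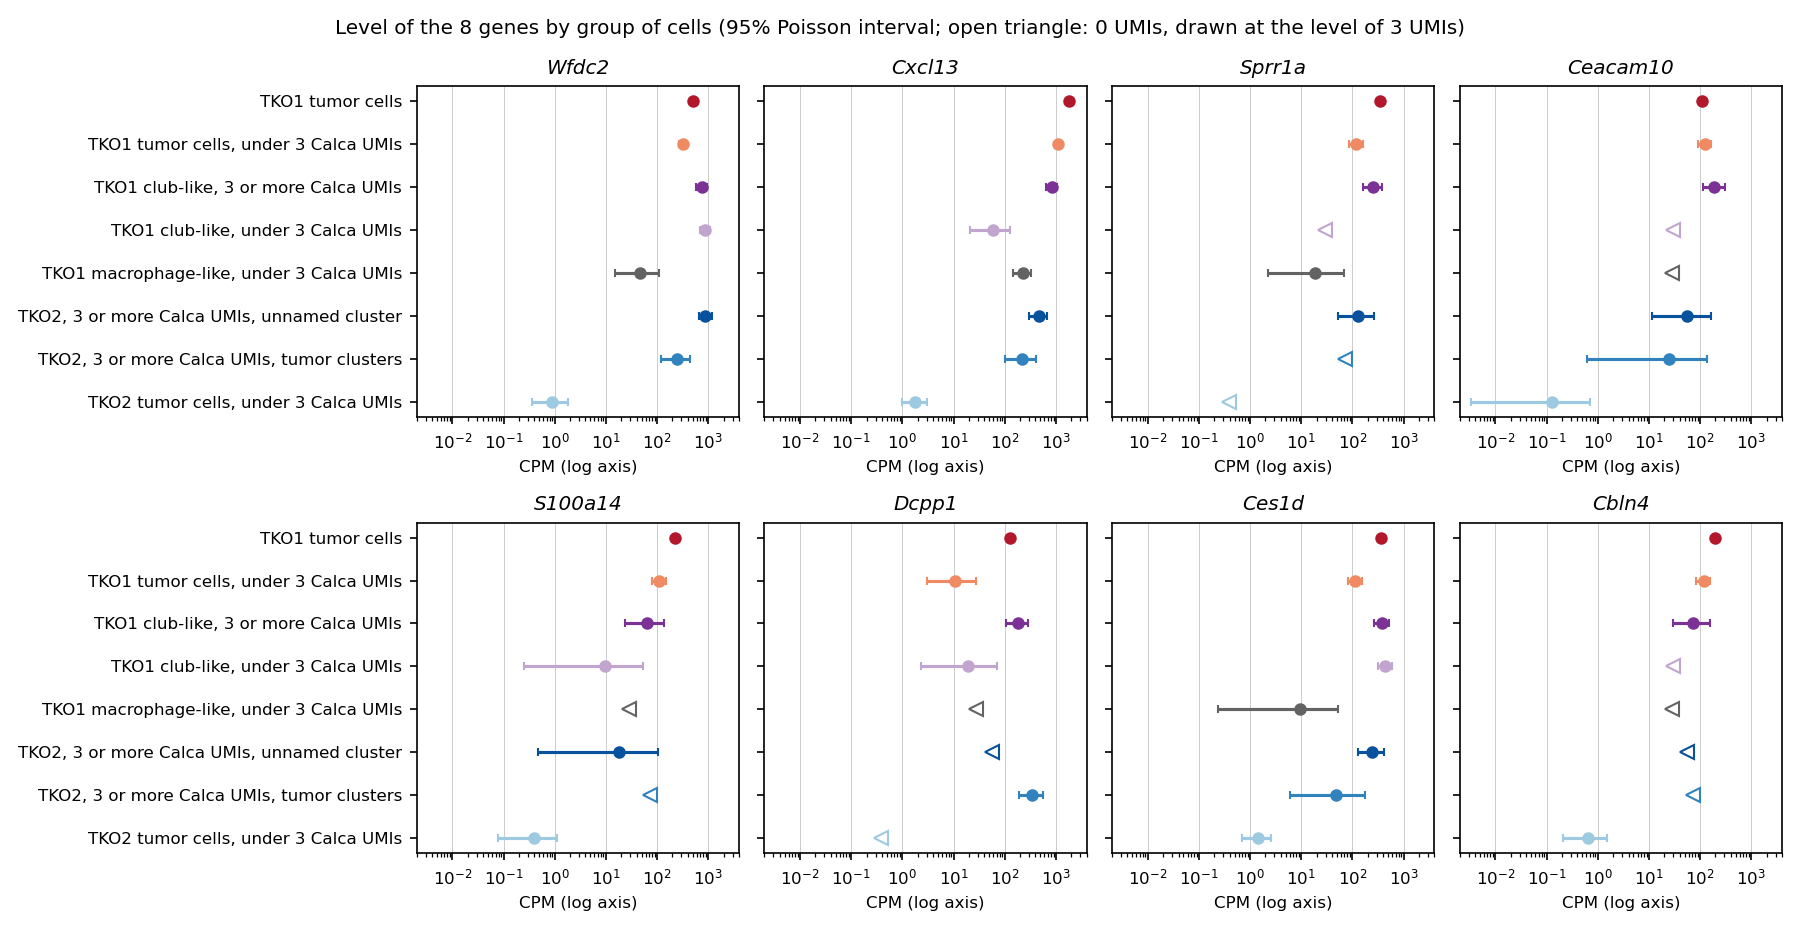
Level of each of the 8 genes in CPM (log axis) in 8 groups of cells, divided at 3 *Calca* UMIs per cell. Points are CPM of summed UMIs with 95% Poisson intervals, and open triangles mark groups with 0 UMIs, drawn at the level of 3 UMIs; *Wfdc2* and *Ces1d* stay high in club-like cells with under 3 *Calca* UMIs, at 878 and 439 CPM, while the other 6 genes fall to 58.5 CPM or less.

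Spread across TKO1 tumor cells was measured after thinning every cell to 1000 UMIs, which kept 2150 cells and left out 840. At this depth 35.0% of cells held a UMI of *Wfdc2*, 61.5% of *Cxcl13*, 25.2% of *Ces1d*, 19.4% of *S100a14*, 16.05% of *Cbln4*, 13.4% of *Sprr1a*, 8.51% of *Ceacam10* and 7.40% of *Dcpp1*. Without thinning the shares were 42.4%, 66.7%, 31.8%, 23.9%, 20.1%, 14.5%, 11.3% and 9.77% in the same order. In the 82 macrophage-like cells of the same library that reached this depth, the thinned shares were 10.98%, 13.4%, 3.66%, 3.66%, 1.22%, 3.66%, 1.22% and 2.44%. The median depths before thinning were 1212.5 UMIs in tumor cells and 1314 UMIs in macrophage-like cells. The thinned share was higher in tumor cells for each of the 8 genes. The genes were chosen on their level in these tumor cells, so this direction is only a description. For *Dcpp1* the intervals overlapped, at 6.32 to 8.58% in tumor cells and 0.297 to 8.53% in macrophage-like cells.

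Most tumor cells held some of the 8 genes and none held all. At 1000 UMIs, 88.1% (86.7 to 89.5) of TKO1 tumor cells had a UMI of at least 1 of the 8, the median cell had 2 of them and 3 cells had 7. The share was 73.6% in 91 club-like cells, 23.2% in 82 macrophage-like cells, 58.5% in 41 *Calca* barcodes of TKO2 and 0.792% in 3031 TKO2 tumor cells; 14, 16, 12 and 363 cells of these groups did not reach the depth and were left out.

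The Fano factor, the variance over the mean of a gene's UMIs per cell, is near 1 where cells differ by counting alone. Its median was 1.17 over the 3558 genes whose mean reached 0.05 UMIs per cell. *Sprr1a* stood at 5.15 (SE 0.88), above all but 4 of these genes. The 10% of cells richest in *Sprr1a* held 90.3% of its UMIs, where 13.4% of cells held any. This measure depends on how many cells hold the gene, and was 100% for both *Dcpp1* and *Ceacam10*. Of the cells, 6.84% had 1 *Sprr1a* UMI and 4.51% had 3 or more, with up to 21 in a cell. *Cxcl13* followed at 3.42 (SE 0.38) with up to 32 UMIs in a cell, and *Dcpp1* at 2.64 (SE 0.48). These 3 genes lay in the top 1% of genes by this measure. *Ces1d* at 1.48 (SE 0.15), *Wfdc2* at 1.45 (SE 0.11) and *Ceacam10* at 1.43 (SE 0.16) lay between percentiles 92.8 and 94.3, and *S100a14* at 1.28 (SE 0.10) and *Cbln4* at 1.26 (SE 0.10) at percentiles 81.0 and 78.0.

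**Figure D2:**
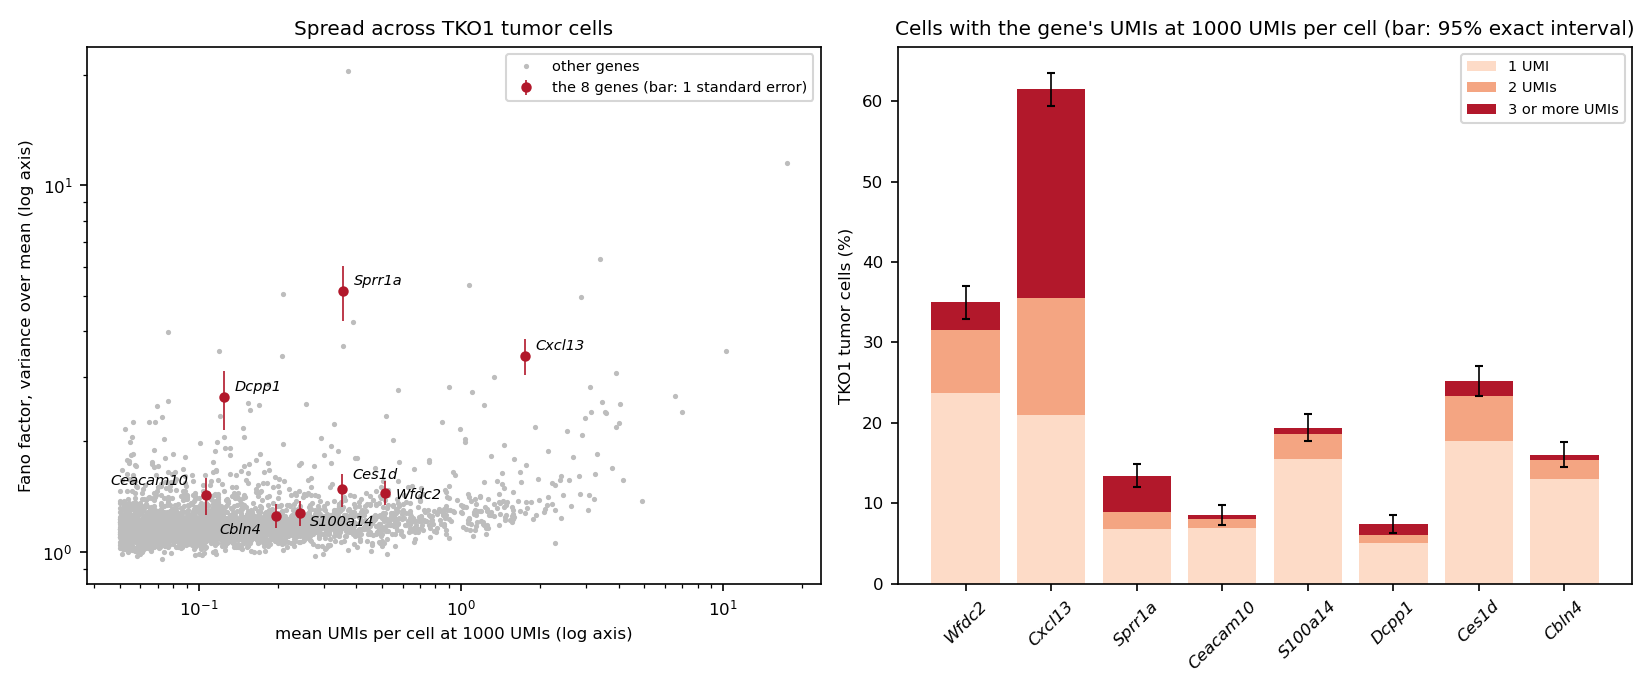
Left, mean UMIs per cell against the Fano factor (both log axes) for 3558 genes in 2150 TKO1 tumor cells thinned to 1000 UMIs, with the 8 genes in red (bars, 1 standard error). Right, percentage of those cells with 1, 2 or at least 3 UMIs of each gene (bars, 95% exact interval of the whole share); *Sprr1a*, *Cxcl13* and *Dcpp1* stand apart from the other 5 genes, at 5.15, 3.42 and 2.64.

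The promoters of these 3 most uneven genes are shown because these genes had the highest Fano factors of the 8. The sequences are those of RefSeq on GRCm38.p6, up to 250 bases before the gene start, given 5′ to 3′ on the gene's strand, at chr3:92485896-92486131 (-) for *Sprr1a*, chr5:95956689-95956938 (+) for *Cxcl13* and chr17:23880626-23880875 (+) for *Dcpp1*. Capitals mark matches to AGGAAG or its reverse complement CTTCCT (the ETS core, as bound by Elf3), CAGCTG (an E-box), TGANTCA (AP-1) and TATAAA (the TATA box).
Sprr1a: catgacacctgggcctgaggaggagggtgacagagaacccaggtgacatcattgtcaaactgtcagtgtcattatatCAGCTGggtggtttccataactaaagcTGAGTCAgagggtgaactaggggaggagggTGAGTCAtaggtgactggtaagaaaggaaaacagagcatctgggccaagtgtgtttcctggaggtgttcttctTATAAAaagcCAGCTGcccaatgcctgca
Cxcl13: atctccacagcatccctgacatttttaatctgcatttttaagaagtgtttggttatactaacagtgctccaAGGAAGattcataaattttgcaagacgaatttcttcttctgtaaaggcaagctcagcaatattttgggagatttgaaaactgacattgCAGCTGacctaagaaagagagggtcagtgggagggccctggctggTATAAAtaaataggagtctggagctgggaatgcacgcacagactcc
Dcpp1: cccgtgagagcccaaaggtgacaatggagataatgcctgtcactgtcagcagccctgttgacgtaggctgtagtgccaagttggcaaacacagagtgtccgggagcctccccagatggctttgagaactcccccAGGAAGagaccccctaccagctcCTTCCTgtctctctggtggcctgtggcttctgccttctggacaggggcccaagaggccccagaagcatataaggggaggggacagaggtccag

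Both strands were searched and no matches overlapped. *Sprr1a* held TGAGTCA at -146 to -140 and at -116 to -110, counted from the RefSeq start, CAGCTG at -173 and at -33 and TATAAA at -43. Its printed sequence has 236 bases and ends at the annotated gene, short of the RefSeq start. Distances counted from its printed end are therefore smaller than these positions. *Cxcl13* held AGGAAG at -179, CAGCTG at -91 and TATAAA at -46, and *Dcpp1* held AGGAAG at -116 and CTTCCT at -93. RefSeq promoters were matched for 5 of the 8 genes: of these, AP-1 was found in 1, the E-box in 2, the ETS core in 2, the TATA box in 2 and the forkhead motif TGTTTAC in 0. Of 32851 mouse promoters the same search found them in 6.75%, 13%, 29.5%, 12.4% and 3.17%. A match describes the letters and not a bound site.

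For every one of the 8 genes, the lowest and highest of the 8 TKO1 tumor clusters lay beyond each other's counting intervals. These extremes were picked by their values. The intervals also leave out unevenness between cells, as within clusters, where the Fano factor of *Sprr1a* reached 6.85. Whether the clusters differ was therefore not tested. Clusters are called by number and by their leading genes. *Dcpp1* ran from 9.01 CPM (1.86 to 26.3) in cluster 6, led by *Nefm*, *Nefl* and *Nppb*, to 272 CPM (226 to 325) in cluster 3, led by *Dusp26*, *Ttr* and *Anxa1*. *Sprr1a* had the same extremes, from 33.0 CPM (16.5 to 59.1) to 607 CPM (536 to 683). *Cbln4* also was lowest in cluster 6, at 45.0 CPM (25.2 to 74.3), and was highest, at 280.4 CPM (242 to 323), in cluster 0, led by *Psmd5*, *Pde1a* and *Vmac*.

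*Ceacam10* was highest in cluster 6, at 402 CPM (337 to 476), and next highest in cluster 3, at 171 CPM (135 to 214). It was lowest, at 57.1 CPM (40.2 to 78.7), in cluster 5, led by *Rab23*, *Mark3* and *Scx*. *Cxcl13* was highest in cluster 6 too, at 2975 CPM (2793 to 3166), and lowest in cluster 4, at 991 CPM (914 to 1073), which was led by the mitotic genes *Kif20a*, *Ube2c* and *Plk1*. Cluster 6 was also that with the most *Mycl*, the MYC family oncogene of many small cell lung cancers, at 1363 CPM. Neurofilament-led cells thus had the highest *Ceacam10* and the lowest *Sprr1a*, both beyond the interval of every other cluster. Their *Cxcl13* was the highest value, but its interval overlapped that of cluster 3, at 2773 CPM (2620 to 2932). Their *Dcpp1*, *S100a14*, *Ces1d* and *Cbln4* were the lowest values, each with an interval that overlapped that of at least 1 other cluster.

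*Ces1d* ran from 135 CPM (98.5 to 181) in cluster 6 to 532 CPM (479 to 589) in cluster 1, which was led by the cilium genes *Fam183b* and *Cfap126* with *Adm*, and had the highest summed hypoxia list, at 4308 CPM. *S100a14* ran from 126 CPM (90.9 to 170) in cluster 6 to 298 CPM (253 to 350.1) in cluster 2, which was led by *Dcpp1* itself. *Wfdc2* was the most even, from 381 CPM (334 to 433) in cluster 4 to 634 CPM (546 to 732) in cluster 7, a ratio of 1.66. Differences between clusters made up between 0.918% (*Wfdc2*) and 5.93% (*Cxcl13*) of the variance across thinned cells, and 22.0% for *Calca*. Mean UMIs per thinned cell were 0.107 (*Ceacam10*) to 1.75 (*Cxcl13*) for the 8 genes and 17.6 for *Calca*. Counting error fills more of the variance of a sparse gene, so these shares do not rank the 8 genes against *Calca*. The ratio of highest to lowest cluster ran from 1.66 (*Wfdc2*) to 30.2 (*Dcpp1*). *Calca* ran from 6041 CPM in cluster 4 to 24162 CPM in cluster 3.

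**Figure D3:**
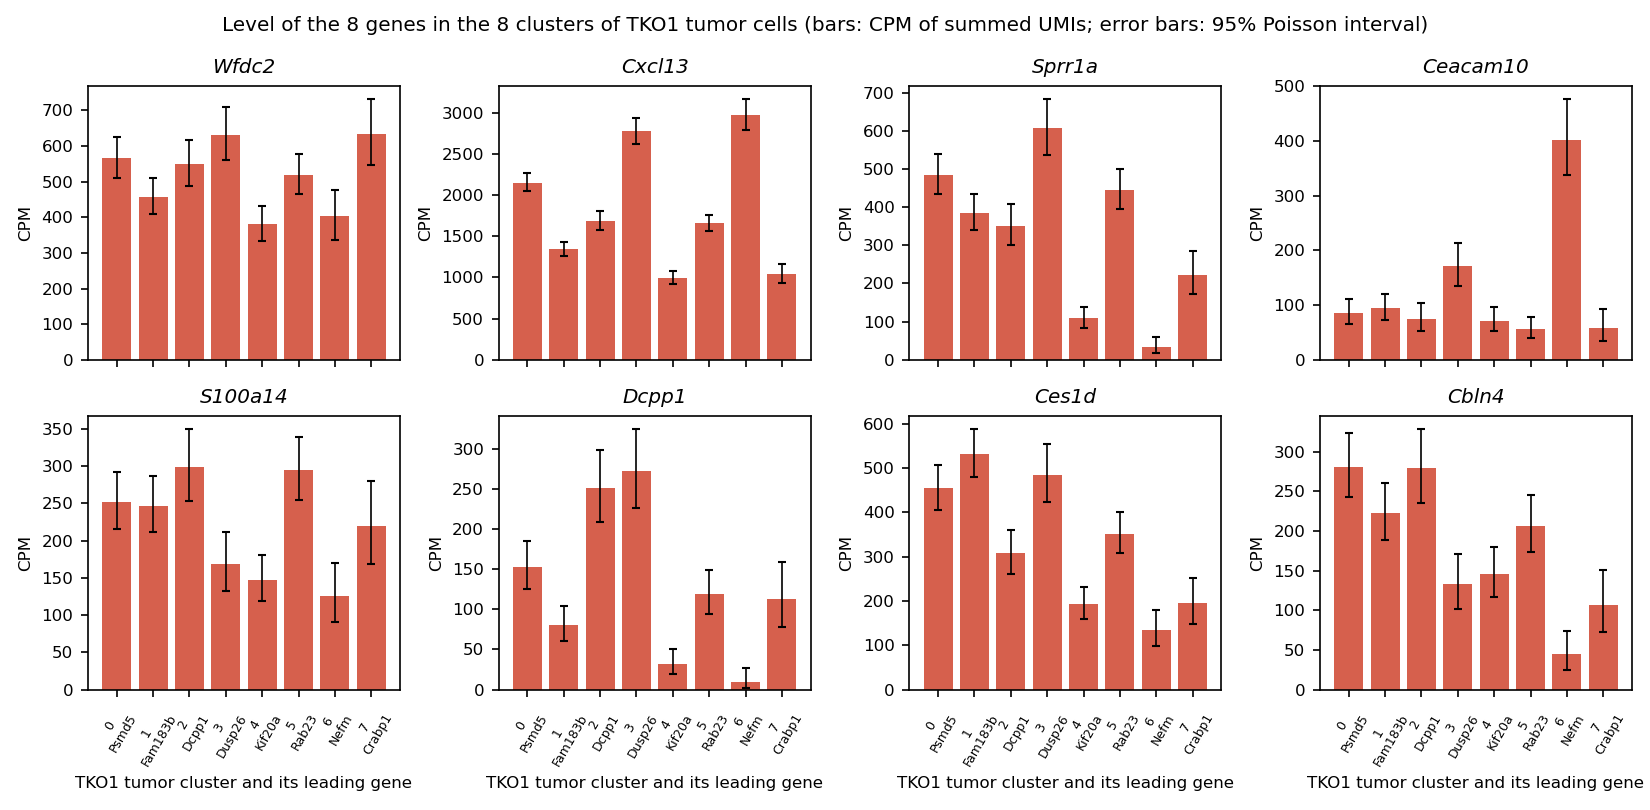
CPM of each of the 8 genes in the 8 clusters of TKO1 tumor cells, each cluster named by its number and leading gene, with 95% Poisson intervals and axes that start at 0. Cluster 6 (*Nefm*) holds the highest *Ceacam10* and *Cxcl13*, at 402 and 2975 CPM, and the lowest value of 5 of the other 6 genes, although the intervals of *Cxcl13* and of 4 of those 5 overlap that of another cluster.

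Across the 2150 thinned tumor cells the 8 genes hardly moved together. Pearson r of log(1 + UMIs) over the 28 pairs ran from -0.022 for *Ceacam10* with *Cbln4* to 0.12 for *Cxcl13* with *Sprr1a*, with a median of 0.032, against a median of -0.00081 over all pairs of the 3558 genes. These cells share 1 library and a fixed depth, and correlations of this size in sparse counts are no finding. *Calca* was the gene most alike to 5 of the 8 by this measure, with r of 0.21 for *Sprr1a*, 0.19 for *Cxcl13*, 0.16 for *Dcpp1*, 0.11 for *Wfdc2* and 0.077 for *S100a14*. It was the second for *Cbln4*, at 0.098 after *Itm2b* at 0.11. *Calca* had a mean of 17.6 UMIs per thinned cell, and counting error lowers r more for sparse genes. Its rank may thus reflect its high count and is only a description.

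*Calca* was not among the 3 genes most alike to *Ceacam10* or *Ces1d*. The genes most alike to *Ceacam10* were *Bik* at 0.093, *Rpl13a* at 0.087 and *Mycl* at 0.085, while its r with *Calca* was -0.0058. The genes most alike to *Ces1d* were *Resp18* and *Itm2b*, both at 0.18, and *Junb* at 0.15, and its r with *Calca* was also 0.15. *Junb*, an AP-1 subunit, was also the gene second to *Calca* for *Sprr1a*, at 0.12. With the summed proliferation list all 8 genes had a negative r, from -0.028 for *Cbln4* to -0.14 for *Cxcl13*.

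**Figure D4:**
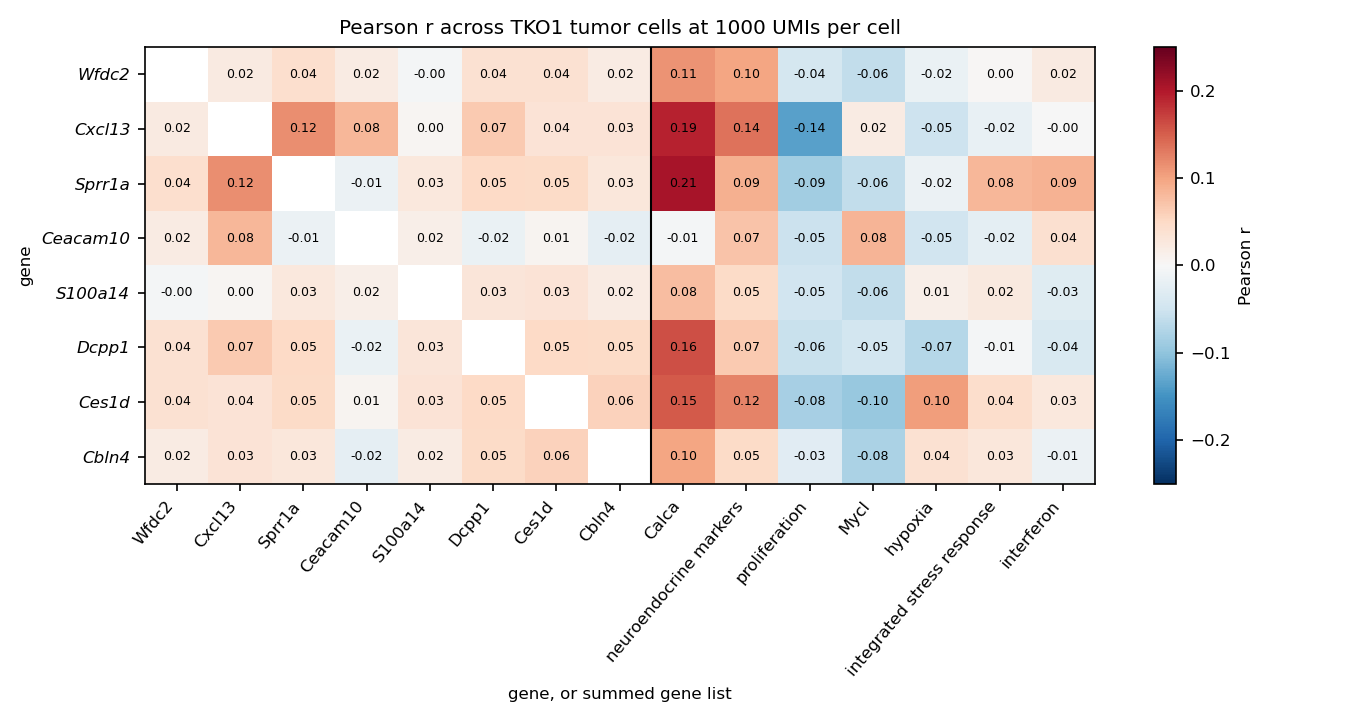
Pearson r of log(1 + UMIs) across 2150 TKO1 tumor cells thinned to 1000 UMIs, of each of the 8 genes with the other 7 (left of the line) and with *Calca*, *Mycl* and summed gene lists (right of the line). Pairs of the 8 genes reach at most 0.12, and the column of *Calca* is the warmest, from -0.0058 for *Ceacam10* to 0.21 for *Sprr1a*.

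Part of the UMIs of the 8 genes in TKO2 lay in barcodes with *Calca*. Of the 53 barcodes with at least 3 *Calca* UMIs, 33 lay in the unnamed cluster, 18 in tumor clusters and 2 in the macrophage-like cluster, with a median depth of 1213 UMIs. Together they held 136 UMIs of the 8 genes, and 39 of them (73.6%) held at least 1. At 1000 UMIs per cell, 58.5% of the *Calca* barcodes held a UMI of any of the 8. The share was 0.531% in the TKO2 tumor cells with under 3 *Calca* UMIs. Low levels in TKO2 tumor cells chose the genes, so the gap between these shares is only a description.

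*Wfdc2* gave 59 UMIs in 29 of the 53 barcodes, *Cxcl13* 36 UMIs in 17 and *Ces1d* 15 UMIs in 11. *Ceacam10* gave 4 UMIs in 4 barcodes. The other 3376 TKO2 tumor cells are cells whose low levels chose the 8 genes, so ratios over them are a description from which nothing is read. By these ratios 7 of the 8 genes were at least 4-fold higher, beside 8.8% of the 11649 genes tested. Among the 7, *Sprr1a* (7 UMIs against 0), *Ceacam10* (4 against 1) and *S100a14* (1 against 3) fell short of the 10 UMIs required of the genes tested. The count of 7 is therefore not like that background. Of the genes tested, 2964 had no ratio and could not be called, and the median log2 ratio of the rest was 0.30. The log2 ratios were 9.39 (8.26 to 10.77) for *Wfdc2*, 7.68 (6.75 to 8.68) for *Cxcl13*, 8.31 (4.98 to 13.94) for *Ceacam10* and 6.76 (5.54 to 8.03) for *Ces1d*. *Dcpp1* was at least 371-fold and *Sprr1a* at least 186-fold higher, each resting on 1 barcode, with 13 of 14 and 7 of 7 UMIs. *S100a14*, with 1 UMI against 3, gave a log2 ratio of 4.73 (-0.98 to 8.37), and *Cbln4*, with 0 UMIs, gave no ratio.

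The *Calca* barcodes of TKO2 were themselves of different kinds. Of the 53, 34 held no UMI of *Mycn* and 19 held at least 1. *Mycn* was at 2878 CPM in the tumor cells of TKO2. It was also at 723 CPM in the macrophage-like cells of TKO2, where 38 of 124 cells held a UMI. A single *Mycn* UMI thus does not by itself mark a tumor cell. Without *Mycn*, *Wfdc2* was at 974 CPM (713 to 1300), *Cxcl13* at 529.6 CPM (343 to 782), *Ces1d* at 275 CPM (147 to 471) and *Dcpp1* had 0 UMIs, which allows up to 63.5 CPM. With *Mycn*, *Wfdc2* was at 259 CPM (138 to 443), *Cxcl13* at 219 CPM (109 to 392), *Ces1d* at 39.8 CPM (4.82 to 144) and *Dcpp1* at 279 CPM (152 to 468). *Wfdc2* was thus higher beyond its intervals in barcodes without *Mycn*, and the intervals of *Cxcl13* overlapped. Those of *Ces1d* barely cleared each other, at 147 and 144 CPM. They rest on 13 UMIs in 9 of 34 barcodes and 2 UMIs in 2 of 19, and cover counting error only, so no difference is read from *Ces1d*. The split by *Mycn* largely followed the clusters. Of the 34 barcodes without *Mycn*, 30 lay in the unnamed cluster, where both neuroendocrine and club markers were raised. Of the 19 with *Mycn*, 16 lay in tumor clusters. The 33 *Calca* barcodes of the unnamed cluster held 6401 CPM of neuroendocrine markers, beside 1990 CPM in TKO2 tumor cells. Their 1819 *Scgb1a1* UMIs all lay in 5 of these 33 barcodes. Median depth also differed, at 1122 UMIs without and 2045 UMIs with *Mycn*. Which of these goes with the difference was not tested. In the 17 barcodes of the unnamed cluster that had under 3 *Calca* UMIs, *Wfdc2* was at 1524 CPM (1078 to 2091) and *Ces1d* at 200.5 CPM (65.1 to 468), while *Cxcl13* gave 9 UMIs in 2 barcodes.

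Of the 53 barcodes 1 had a sequence that also occurred in TKO1. Without the barcodes of both libraries *Wfdc2* in the *Calca* barcodes was at 616 CPM and *Cxcl13* at 365 CPM. Whether RNA of the TKO1 library entered the TKO2 library was not tested.

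**Figure D5:**
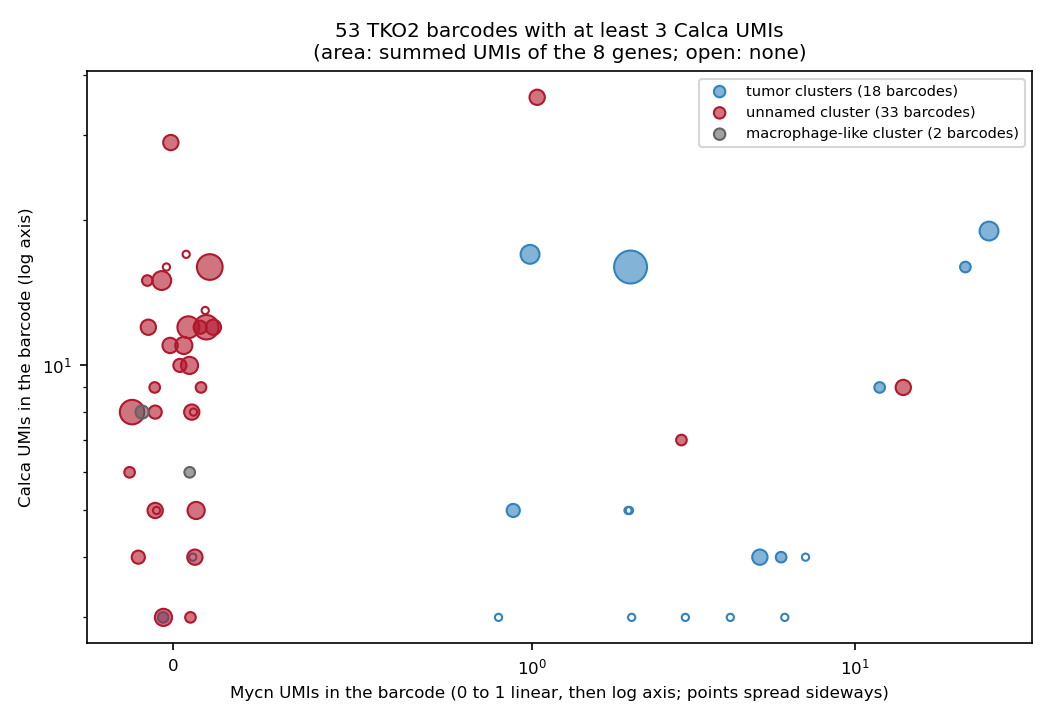
The 53 TKO2 barcodes with at least 3 *Calca* UMIs, by *Mycn* UMIs (0 to 1 linear, then log axis, with points spread sideways) and *Calca* UMIs (log axis). Colour gives the cluster, area the summed UMIs of the 8 genes and open points have none; 34 barcodes hold no *Mycn* UMI, and the largest point, with 17 UMIs, is the barcode that holds 13 *Dcpp1* UMIs.

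The families of the 8 genes were read from fixed lists, counting genes with at least 10 UMIs over both tumors and calling a 4-fold ratio. The lists hold the members themselves, which were chosen on this contrast, so their counts are a description, beside 14.3% higher and 4.84% lower over all genes. Of the S100 family 9 were tested, 7 were higher in TKO1 tumor cells and 0 lower, among them *S100a1* (73.9-fold), *S100a16* (38.5-fold) and *S100a13* (27.7-fold). Of the cornified envelope list 4 of 28 genes could be tested and 3 were higher, namely *Sprr1a*, *Lor* (108-fold) and *Evpl* (10.4-fold). Both genes tested of the CEACAM family, *Ceacam10* and *Ceacam1*, were higher, as were all 3 demilune genes, with *Dcpp3* at 55.3-fold on 30 UMIs against 1. The counts of the demilune genes may not be independent, since *Dcpp1* shares sequence at its transcript end with other genes, among them *Dcpp2*.

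Among WAP-domain and protease inhibitor genes 3 of 6 were higher, *Wfdc2*, *Wfdc3* and *Spint1* (5.65-fold). A list of CXC chemokines and receptors, which also holds lymphotoxin genes and their receptor *Ltbr*, had 4 of 7 higher. Beside *Cxcl13* these were *Cxcl17*, *Cxcl2* and the lymphotoxin gene *Ltb*, all under 10 CPM. No UMI count of the receptor *Cxcr5* reached the test. Of the cerebellins and their partners 9 were tested, of which 2 were higher and 3 lower, with a median log2 ratio of 0.71. Of the carboxylesterases 2 were tested and *Ces1d* was higher.

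Other epithelial genes were read from 3 further lists. Of 17 epithelial barrier genes tested 11 were higher and 0 lower, led by the keratin *Krt19* (92.5-fold), *Krt18* (18.6-fold), the claudin *Cldn4* (18.0-fold) and *Cdh1* (16.4-fold), which codes for E-cadherin. The list's median log2 ratio was 2.11. Of 12 epithelial transcription factors 4 were higher, *Ehf* (54.9-fold), *Klf4*, *Elf3* and *Ovol2*, and 0 lower. Of 6 airway secretory genes tested 5 were higher. Among them *Scgb1a1* was at 371 CPM in TKO1 tumor cells and 18.1 CPM in TKO2 tumor cells, beside 224 CPM (153 to 316) in the macrophage-like cells of TKO1 and 8.61 CPM (1.04 to 31.1) in those of TKO2. Against club-like cells 10 of the 11 airway secretory genes tested were at least 4-fold lower in TKO1 tumor cells and 0 higher. Their median log2 ratio was -9.33. Over all genes tested in this comparison 3.51% were lower and 5.87% higher. *Scgb1a1*, *Scgb3a1*, *Scgb3a2* and *Cyp2f2* of this list are also among the markers that named the club-like cells, so their direction was not independent of the naming. The airway secretory gene that was not at least 4-fold lower was the mucin *Muc1*, at 158 CPM in tumor cells and 376 CPM in club-like cells.

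The neighbouring genes on the chromosome were described too. The nearest gene on each side with at least 10 UMIs was taken for each of the 8, which gave 16 genes. Their distances ran from 8.34 kb (*S100a13* to *S100a14*) to 2687 kb (*Ccng2* to *Cxcl13*), so a neighbour need not lie close. Of the 16 genes, 9 were at least 4-fold higher in TKO1 tumor cells and 0 lower, beside 14.3% and 4.84% of all genes tested. Among the 9, *Wfdc3*, *Dcpp2*, *S100a11*, *S100a13* and *S100a16* were already counted in the family lists above, so the 2 counts are not separate. The median log2 ratio of the 16 was 2.86. Some of the 9 lay far off, such as *Dok5*, 1234 kb from *Cbln4*, and *S100a11*, 1038 kb from *Sprr1a*. Others rested on few UMIs, such as *Cd177* with 14 against 1 and *Dcpp2* with 13 against 0. *S100a14* lies between *S100a13*, at 174 CPM in TKO1 and 6.29 CPM in TKO2, and *S100a16*, at 676 and 17.6 CPM. The neighbours of *Wfdc2* were *Pigt*, with a log2 ratio of 0.29 (-0.07 to 0.65), and *Wfdc3*, with 3.20 (0.97 to 6.44) on 10 UMIs against 2. Those of *Cxcl13* were *Ccng2*, with 0.31 (0.02 to 0.60), and *Cnot6l*, with 1.26 (1.10 to 1.41).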

How the data were processed

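Single-cell RNA-seq of live sorted cells from 1 lung tumor of each of 2 mice was used. The authors deposited filtered 10x matrices of UMI counts per gene and barcode, not normalized; the submitters' processing notes name Cell Ranger and Seurat and the build mm10 (GRCm38), with versions not given in the sources used here. The 8 genes and all gene lists were chosen with earlier results of these data known. Barcodes with more than 500 genes were kept and clustered per tumor in Seurat 5.3.0 (R 4.3.3; genes in at least 10 cells, 10000 UMIs per cell, log scale, 1000 variable genes without the 8 genes and *Calca*, 10 principal components, resolution 0.8). A cluster was named where at least 3 markers of a type exceeded their level in the rest of its tumor by 4-fold or more, or, for neuroendocrine-like, at least 2-fold higher than in macrophage-like cells. Where both rules were met, the larger number of markers gave the name. Cluster 1 of TKO1, with 13 neuroendocrine and 4 ciliated markers, was thus called neuroendocrine-like. Such a cluster was left unnamed where at least 3 of its 10 leading genes marked another type. No doublets were removed in the main values; leaving out the highest 5% of Scrublet scores (scanpy 1.11.5; 151 and 136 barcodes) was an alternative.

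UMIs were summed per group and divided by the group's total (CPM). Intervals were exact Poisson for CPM, conditional binomial for ratios and Clopper-Pearson for shares, at 95% (scipy 1.17.1). A gene at 0 UMIs was set at 3 UMIs for a bound, and no ratio was given where this left the direction unsettled. Genes with at least 10 UMIs over the groups compared were tested against a size limit of 4-fold. The 8 genes were given ratios without this minimum. No p-value was computed. For shares, Fano factors and correlations each cell was thinned to 1000 UMIs (seed 1). The calculations were checked on simulated counts. The values of some single genes of the lists are not reported here. Gene positions are GENCODE on GRCm38 and promoters RefSeq on GRCm38.p6; promoter sequence was printed for 3 genes, and that of *S100a14*, *Ces1d* and *Wfdc2* was not used here. Named are the 8 genes, *Calca*, genes of the lists and markers, the 3 leading genes of a cluster, the 3 genes most alike to each of the 8 and their nearest neighbours; *Mycn*, *Mycl*, the deleted genes and those beside the 8 in the ranking were added after their values were seen. Alternatives changed the filter on genes per barcode, the clustering, the thinning depth, the UMI minimum, the scaling (including TMM factors from edgeR 4.0.16 used for scaling alone), the doublet scores and the shared barcodes.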

Additional observations from a re-analysis of the deposited data

Results flagged for a closer look

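Barcodes with at most 500 detected genes were outside every comparison and still held UMIs of the 8 genes above the limit that a count of 0 allows. In TKO1, 1321 such barcodes held 2591 UMIs of the 8 genes in all, with *Cxcl13* at 1719 CPM and *Wfdc2* at 565 CPM, beside 1772 and 511 CPM in the tumor cells. In TKO2, 248 such barcodes held 65 UMIs of the 8 genes, of which 36 were of *Wfdc2*, 16 of *Cxcl13* and 10 of *Ces1d*. This made 193 CPM of *Wfdc2* (135 to 268), 86.0 CPM of *Cxcl13* (49.1 to 140) and 53.7 CPM of *Ces1d* (25.8 to 98.8), against 2.18, 2.95 and 1.67 CPM in the TKO2 tumor cells. Club markers summed to 16557 CPM in these TKO2 barcodes and to 27.5 CPM in the TKO2 tumor cells, and their part in the result was not tested.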

How the results depend on the processing

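No paired analysis was possible because each tumor has 1 library and no replicate. The median log2 ratio of TKO1 tumor cells to club-like cells was 0.97. It reversed to -0.26 with more than 1000 genes per barcode, where 22 club-like cells remained. *Sprr1a* then went to -0.069, and *Ceacam10* and *Dcpp1*, whose intervals had included 0, went from 0.28 and 0.41 to -0.45 and -0.90 (with TMM factors to -0.19 and -0.061). The median was 2.72 with the club-like cells with under 3 *Calca* UMIs alone, a setting chosen after the data were seen. The median share of TKO1 tumor cells with a UMI was 17.7% at 1000 UMIs, 9.48% at 500 UMIs and 27.5% at 2000 UMIs. Of all genes tested in the comparison of *Calca* barcodes with other TKO2 tumor cells, 8.8% were at least 4-fold higher, and 4.09% with at least 50 UMIs per gene. Of the other values for the 8 genes together and the backgrounds, 54 stayed within the median of the 8 genes' interval bounds, or within 1.5 times for the backgrounds. Of those for single genes 370 stayed within the gene's interval, 53 moved out of it and 1, *Sprr1a*, reversed from a value whose interval had not included 0. The median log2 ratio of TKO1 to TKO2 tumor cells lay between 8.12 and 9.48 over all settings, and those of the single genes between 5.78 (*Dcpp1*) and 10.23 (*S100a14*). More than 200 genes per barcode formed no club-like cluster and gave no ratio to club-like cells. With more than 1000 genes no macrophage-like cluster formed, and the cell names of the other clustering were used. Depth limits the rarest groups: in the 57 club-like cells and the 53 *Calca* barcodes, 0 UMIs allow up to 29.3 and 30.8 CPM. The cause of these changes was not tested.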

Other observations

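The macrophage-like cells of TKO2 held *Cxcl13* at 73.1 CPM (42.6 to 117), from 17 UMIs in 6 of 124 cells, while the tumor cells of the same library held 2.95 CPM. No UMI of *Sprr1a*, *Ceacam10*, *S100a14*, *Dcpp1*, *Ces1d* or *Cbln4* was found in those cells, which allows up to 12.9 CPM each, and *Wfdc2* gave 2 UMIs. In TKO1 the 74 macrophage-like cells with under 3 *Calca* UMIs held 24 *Cxcl13* UMIs, of which 22 came from 1 cell. A few macrophage-like barcodes of each tumor thus carried *Cxcl13* with little *Calca*.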
